A study of Mus musculus with 12 samples.

Results

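Imprinted genes are expressed mainly from 1 parental allele, and 40 of them were looked up by symbol in a table of 5-methylcytosine (5mC) and 5-hydroxymethylcytosine (5hmC) signal in mouse helper T cells. All 40 were found among 37544 gene areas, a gene area being the whole span of a gene from its start to its end. Signal was measured by immunoprecipitating denatured DNA fragments with an antibody to either modified base and sequencing what was bound. For naive, Th1, Th2, iTreg (induced regulatory T) and Th17 cells there was 1 library per antibody. Th17 cells also gave 1 library with control IgG and 1 of input DNA, so that each of the 12 groups held 1 library. The design text names CD2(Cre)Tet2(f/f) mice, in which Cre driven by the CD2 promoter of lymphocytes deletes Tet2, together with wild-type littermates, all on a mixed background. Which of these genotypes a library came from, the age of the mice, and any pooling of animals are not given in the labels.

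In imprinted regions the egg or the sperm lays down methylation at a germline differentially methylated region, and this mark is kept on 1 parental allele through the divisions of somatic cells. It decides which parental copy of the nearby genes is expressed, often through a long non-coding RNA or an insulator. Tet enzymes oxidise 5mC to 5hmC, which in many tissues lies along the bodies of genes. A gene area covers the gene body as well as any germline region within it, and the signal joins both parental alleles, so neither a promoter nor an allele was resolved here.

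The 40 genes fell into 17 imprinted clusters or single loci on 9 chromosomes, with 19 of the genes on chromosome 7. Of the clusters, 8 held several of the genes and 9 held 1. By textbook assignment 15 were expressed from the maternal allele, 20 from the paternal allele and 5 from an allele that depends on isoform or tissue. The gene areas were 976 to 319788 bp long. A filter on low values kept 28159 gene areas whose mean over the 10 libraries with the 5mC and 5hmC antibodies was at least 3.31, and 36 of the 40 imprinted genes passed it. Ndn, Magel2, Mkrn3 and Peg12, all in the Snrpn cluster, did not pass, and their values are given as a description.

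Over all gene areas the median 5hmC signal was 12.0 for naive cells and 9.9 to 11.0 in the other 4, the 5mC medians were 0.6 to 0.7, and the IgG and input medians were 0.8 and 1.7. A pair of cytokine genes put a pair of 5hmC labels in doubt. Il17a had a 5hmC signal of 31.3 in the library labelled iTreg and 8.8 in the library labelled Th17, and Il17f had 32.8 and 5.3, so both are called libraries labelled iTreg and Th17 here, and the main differences are also given with Th1 and Th2 alone. By limma, 10.1% of the gene areas tested had higher 5hmC than 5mC. All 10 T cell marker genes tested did, and so did 3 of 10 B cell and myeloid markers. The summed 5hmC signal of the T cell markers was 1118.2 in the naive library and 287.2 to 437.7 in the others. That of the B cell and myeloid markers was 424.0 and 197.2 to 236.4, with none of either list at 0. The part of these shifts in the differences of the imprinted genes from naive was not tested, and fewer cells with a mark and less of the mark per cell cannot be told apart in bulk DNA.

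The level of 5hmC differed widely among the imprinted genes, and in 5hmC means over the 5 cell types Tspan32, Peg10, Peg3, Zim1 and Sgce led while genes of the Snrpn cluster came last. Tspan32, a tetraspanin of blood cells, had a mean signal of 57.7 ± 2.15 (SD over 5 cell types, 1 library each), higher than 98.4% of all gene areas. Peg10 had 49.2 ± 17.1 and Peg3 had 47.3 ± 7.83, so these neighbours in the order differed by less than their spread. Zim1 followed with 29.7 ± 8.58 and Sgce with 25.5 ± 5.60, which also overlapped. At the other end Peg12 had 4.92 ± 1.42, Ndn 4.70 ± 2.45, Magel2 3.54 ± 1.01 and Mkrn3 3.52 ± 1.48. Signal is a mean over the gene area, but how fragments were counted and scaled is not known from the labels. The order of the genes by level therefore holds for the deposited values alone.

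Against the Th17 background libraries, all 40 imprinted genes had more 5hmC signal in the library labelled Th17 than in IgG and than in input, as did 94.8% and 94.4% of all gene areas. The median log2 ratio of 5hmC to IgG was 3.26 for the imprinted genes and 3.32 for all gene areas. Tspan32 lay highest with 60.8 against an IgG signal of 0.4, and Dlk1 had 14.7 against 0. Peg12 lay lowest, with 6.7 against 4.2. IgG signal was at least 5 times its median, that is 4.0 or more, at Gnas (5.2), Igf2 (4.5) and Peg12 (4.2), against 3.43% of all gene areas, and the 5hmC values of these genes stand on that higher background. For 5mC the picture was different: 1 of 40 genes, Nap1l5, had more 5mC signal in Th17 cells than input (2.0 against 1.6), and 3.85% of all gene areas did. In 5mC 15 of 40 lay above IgG, against 37.8% of all gene areas, and 23 lay below. Since the scaling between libraries is unknown, such counts hold for the deposited scale alone. No share of all gene areas was taken with each library divided by its own median. So divided, 19 genes lay above IgG in 5hmC and 25 above input in 5mC. Differences of 5mC are therefore given with the deposited values, which have 1 decimal.

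The differentiated libraries were then compared with naive cells, separately for each antibody. Differences are log2 of the signal after adding 0.2, and a difference of at least 1, which is 2-fold, was counted. With 1 library per group no test was possible, and the 4 comparisons of each antibody share 1 naive library. Over the mean of the 4 libraries, 18 of the 36 imprinted genes that passed the filter lay below naive in 5hmC and 18 above, with a median of 0.00. Of all gene areas that passed, 64.4% lay below naive and the median was -0.27. With the libraries labelled iTreg and Th17 left out, 19 of 36 lay below, with medians of -0.03 for the imprinted genes and -0.23 for all. The gap between these medians was 0.27 over 4 libraries and 0.21 over Th1 and Th2. A median-ratio scaling raises every differentiated 5hmC library against naive, and moved the median of all gene areas to -0.07 and that of the imprinted genes to 0.20.

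**Figure D1:**
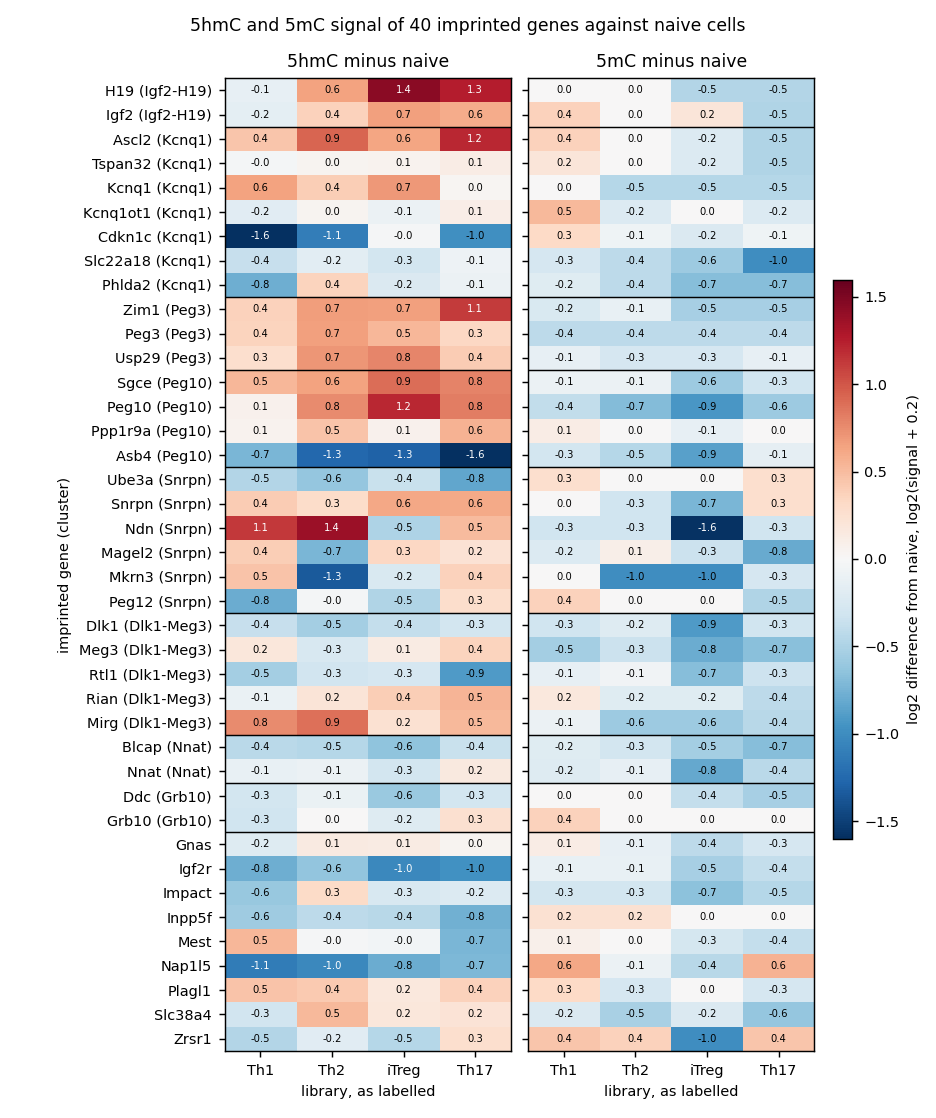
Log2 difference from naive cells of 5hmC signal (left) and 5mC signal (right) at 40 imprinted genes (rows, grouped by cluster) in 4 differentiated libraries (columns, as labelled, 1 library each); red is higher than naive and blue is lower. The rows of the Peg3 cluster are red throughout for 5hmC, Asb4, Igf2r and Nap1l5 are blue throughout, and 5mC is blue in most rows of the libraries labelled iTreg and Th17.

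In 5hmC, differences of at least 2-fold were few among the 36 genes. In the Th1 library 2 were lower, Cdkn1c and Nap1l5, where 16.1% of gene areas were lower, and 0 were higher, where 4.38% were. In the Th2 library 3 were lower, Asb4, Cdkn1c and Nap1l5 (14.8% of gene areas), and 0 were higher (4.9%). In the library labelled iTreg 2 were lower, Asb4 and Igf2r (14.8%), and 2 were higher, H19 and Peg10 (4.56%). In the library labelled Th17 1 was lower, Asb4 (25.7%), and 3 were higher, Ascl2, H19 and Zim1 (4.66%). The lower genes thus made up 2.78% to 8.33% of the imprinted genes, a smaller share than of all gene areas in each library, and the share of higher genes rested on at most 3 genes. Under the median-ratio scaling the lower genes numbered 1 in each library, where 10.7%, 10.6%, 10.2% and 16.9% of gene areas were lower. The higher genes then numbered 0, 2, 3 and 5, where 6.48%, 6.86%, 6.62% and 9.39% of gene areas were higher.

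Of the 36 genes, 11 lay above naive in all 4 libraries for 5hmC (30.6%, against 18.4% of gene areas) and 11 lay below in all 4 (30.6%, against 44.9%). The higher genes were Ascl2, Kcnq1, Mirg, Peg10, Peg3, Plagl1, Ppp1r9a, Sgce, Snrpn, Usp29 and Zim1. The lower genes were Asb4, Blcap, Cdkn1c, Ddc, Dlk1, Igf2r, Inpp5f, Nap1l5, Rtl1, Slc22a18 and Ube3a. Under the median-ratio scaling 15 were above in all 4 and 7 below, counts for which no share of all gene areas was taken. In Th1 and Th2 alone 11 were above naive in both, against 26.8% of gene areas, and 13 below, against 52.7%. Under the median-ratio scaling these counts were 17, against 35.9% of gene areas, and 11, against 43.4%. Per-library values for these genes follow by cluster, always in the order naive, Th1, Th2, then the libraries labelled iTreg and Th17.

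The Peg3 cluster on chromosome 7 held 3 genes with more 5hmC signal in every differentiated library than in naive cells. Peg3 (chromosome 7, 6658670 to 6683129, mm9), a paternally expressed zinc finger gene, had 5hmC signals of 36.0, 46.3, 56.9, 51.9 and 45.5. Usp29 (6683451 to 6919930), a paternally expressed gene of the deubiquitinase family that runs the opposite way from next to the Peg3 start, had 16, 19.3, 26.2, 27.6 and 21.3. Zim1 (6628153 to 6649142), a maternally expressed zinc finger gene, had 19.4, 25, 30.9, 30.8 and 42.5. Naive was the lowest of the 5 libraries at each gene, and the highest was Th2 for Peg3, the library labelled iTreg for Usp29 and that labelled Th17 for Zim1. The mean log2 difference from naive was 0.47 ± 0.15 for Peg3, 0.54 ± 0.24 for Usp29 and 0.70 ± 0.31 for Zim1 (SD over the 4 libraries). With Th1 and Th2 alone it was 0.51, 0.49 and 0.51. Their 5mC signals moved the other way by a few rounding steps: Peg3 had 1.4 in naive cells and 1.0 in each of the others, Usp29 had 1.0 and then 0.8 to 0.9, and Zim1 had 1.1 and then 0.7 to 1.0.

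The start region shared by Peg3 and Usp29 is the known germline region of this cluster, methylated on the maternal allele. The RefSeq promoter windows (assembly GRCm38.p6, 250 bases before to 50 after the start) of the pair overlap by 263 bases, so the methylation of a single stretch bears on both. The Peg3 window (chr7:6730370-6730669, minus strand) holds 13 CG sites and that of Zim1 (chr7:6696383-6696682, minus strand) holds 20. Both are printed to show the CG sites, in capitals, that 5mC and 5hmC can occupy at the starts of this cluster.
Peg3: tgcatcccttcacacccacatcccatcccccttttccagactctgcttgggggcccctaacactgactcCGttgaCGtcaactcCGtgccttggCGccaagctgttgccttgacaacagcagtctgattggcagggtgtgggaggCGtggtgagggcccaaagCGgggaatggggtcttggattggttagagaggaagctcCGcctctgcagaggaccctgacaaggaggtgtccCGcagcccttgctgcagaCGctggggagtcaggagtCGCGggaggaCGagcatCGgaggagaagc
Zim1: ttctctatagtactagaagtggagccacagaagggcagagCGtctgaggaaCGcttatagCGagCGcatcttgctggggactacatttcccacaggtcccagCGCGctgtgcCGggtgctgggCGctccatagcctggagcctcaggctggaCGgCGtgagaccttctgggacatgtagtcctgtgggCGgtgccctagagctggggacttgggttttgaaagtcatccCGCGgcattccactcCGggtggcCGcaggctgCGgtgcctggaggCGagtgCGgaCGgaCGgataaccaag

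Most gene areas next to the cluster also lay above naive in 5hmC, though several had low signal. Of 8 other gene areas of at least 1000 bp within 200 kb, taken without the filter, 6 lay above naive. The median of the 8 was 0.37 against 0.54 for the 3 imprinted genes. Of all gene areas that passed the filter, 35.6% lay above naive. Among the 6, Gm7587 (0.4 to 2.1), Gm6828 (1.6 to 7.3), Gm3530 (2.8 to 6.3) and LOC100418400 (3.4 to 7.1) stayed below the median of all gene areas in every 5hmC library. Zim2, the nearest on the side of Zim1, had 8.4, 9.7, 11.2, 9.1 and 12.2. Zfp954 and Zfp773, the farthest on the Usp29 side, lay below naive with log2 differences of -0.31 and -0.44.

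The Peg10 cluster on chromosome 6 was split, with paternally expressed genes higher at one end and a maternally expressed gene lower at the other. Sgce (4624349 to 4697203), which encodes epsilon sarcoglycan of muscle and brain membranes, had 5hmC signals of 16.7, 24.3, 26.3, 31.3 and 29.0. Peg10 (4697305 to 4710516), a retrotransposon-derived gene needed in the placenta, had 31.4, 33.0, 53.4, 72.4 and 55.6. Both had their lowest value in naive cells and their highest in the library labelled iTreg, and Peg10 in Th1 lay close to naive. Their mean log2 differences were 0.72 ± 0.16 and 0.71 ± 0.47, and 0.59 and 0.42 with Th1 and Th2 alone. Ppp1r9a (4853319 to 5115660), which encodes the actin-binding protein neurabin, had 11.0, 11.4, 15.2, 11.5 and 16.3, a mean difference of 0.28. Asb4 (5333385 to 5383021), a SOCS box gene, had 25.9, 15.5, 10.7, 10.4 and 8.4. Asb4 was highest in naive cells by a wide margin, and its mean difference of -1.22 ± 0.36, which is 2.34 times lower, was the lowest of the 40 genes. With Th1 and Th2 alone it was -1.0, and Cdkn1c (-1.35) and Nap1l5 (-1.08) lay lower.

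In 5mC, Peg10 had 1.9 in naive cells and 1.4, 1.1, 0.9 and 1.2 in the others, the lowest mean log2 5mC difference of the genes that passed the filter (-0.65). Sgce had 1.3 and then 0.8 to 1.2. Asb4 also had less 5mC, with 0.9 and then 0.4 to 0.8, so at this gene both marks were below naive. Within the span, Pon1, a gene of the paraoxonase family next to Ppp1r9a, had 61.1, 75.5, 91.2, 114.7 and 98.9. Its neighbours Pon3 and Pon2, on the side of Asb4, lay below naive with log2 differences of -0.49 and -0.65. Of 2 promoter windows listed for Asb4, the one taken for its CG sites (chr6:5390160-5390459, plus strand, GRCm38.p6) holds 8 of them, in capitals. It is shown as that of the gene whose 5hmC lay farthest below naive.
Asb4: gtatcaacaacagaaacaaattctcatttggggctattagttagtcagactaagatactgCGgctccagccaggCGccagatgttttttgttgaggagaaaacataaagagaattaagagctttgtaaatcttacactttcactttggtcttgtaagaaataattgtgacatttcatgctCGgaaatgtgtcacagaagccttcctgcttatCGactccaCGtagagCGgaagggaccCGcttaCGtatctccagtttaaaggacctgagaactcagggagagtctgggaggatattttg

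**Figure D2:**
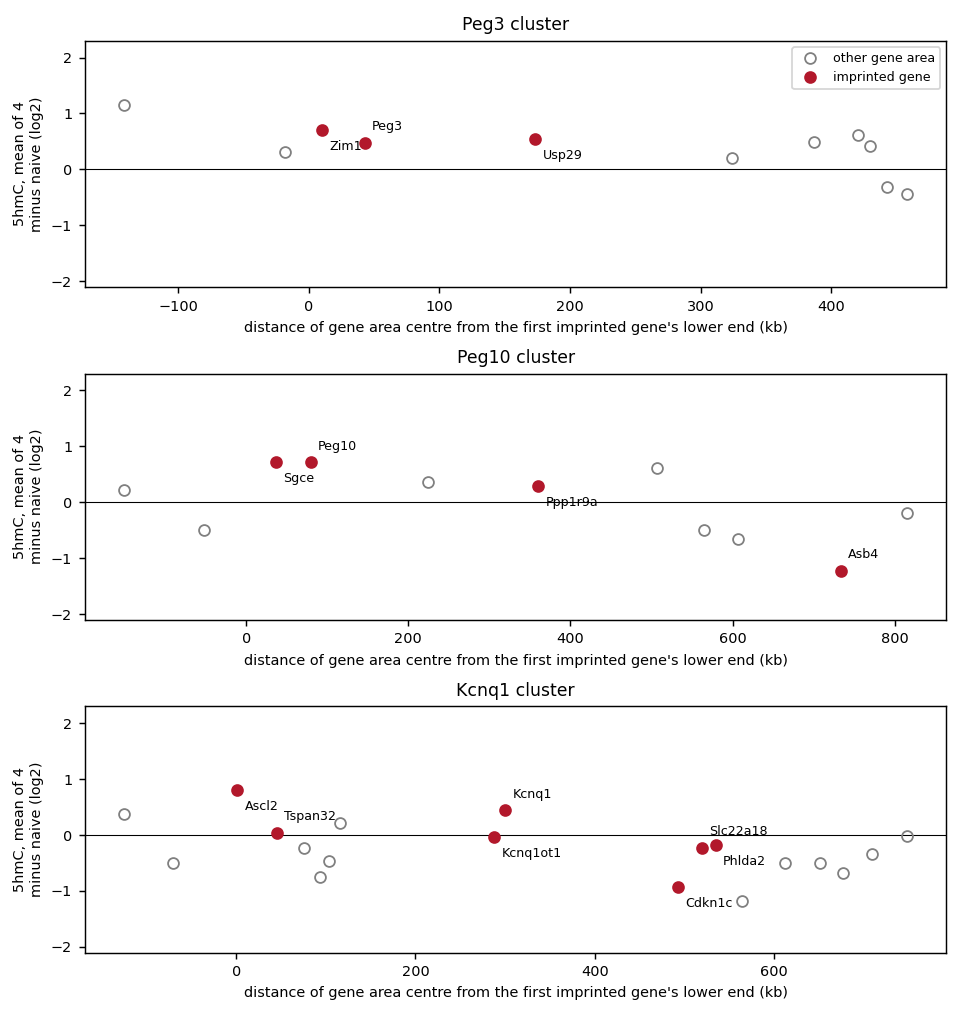
Log2 5hmC difference from naive (mean of 4 libraries) of each gene area of at least 1000 bp along the Peg3, Peg10 and Kcnq1 clusters, by the distance of its centre in kb from the lower end of the first imprinted gene; filled points are imprinted genes and open points other gene areas within 200 kb. The imprinted genes run from 0.72 at Sgce to -1.22 at Asb4 along the Peg10 cluster and from 0.81 at Ascl2 to -0.93 at Cdkn1c along the Kcnq1 cluster, where the open point of Nap1l4 lies lower at -1.17.

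The Kcnq1 cluster on chromosome 7 had 7 of the genes and a median 5hmC difference of -0.03, with values on both sides. Ascl2 (150152726 to 150155168), a basic helix-loop-helix gene of the placenta and of follicular helper T cells, had 14.3, 19.6, 27.4, 22.3 and 33.3. Its mean difference of 0.81 ± 0.33 was level with that of H19 at the top of the 40 genes, and with Th1 and Th2 alone it was 0.69, below Mirg and Ndn. Tspan32 (150190950 to 150205390) had 56.2, 55.2, 57.8, 58.3 and 60.8. The 5 values of Tspan32 lay within a narrow band, so the gene combined one of the highest 5hmC levels with a mean difference of 0.05 ± 0.06 from naive.

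The promoter windows of these neighbours differ in CG content. That of Ascl2 (chr7:142969215-142969514, minus strand, GRCm38.p6) holds 23 CG sites and that of Tspan32 (chr7:143004796-143005095, plus strand) holds 2, again in capitals, and they are set side by side because both genes had high 5hmC relative to 5mC in the test given further on.
Ascl2: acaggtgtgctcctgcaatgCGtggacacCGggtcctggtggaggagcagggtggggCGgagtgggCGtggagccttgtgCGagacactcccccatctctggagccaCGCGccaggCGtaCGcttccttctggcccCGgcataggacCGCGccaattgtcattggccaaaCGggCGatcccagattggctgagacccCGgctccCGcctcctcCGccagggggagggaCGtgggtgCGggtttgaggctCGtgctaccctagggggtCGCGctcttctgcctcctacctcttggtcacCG
Tspan32: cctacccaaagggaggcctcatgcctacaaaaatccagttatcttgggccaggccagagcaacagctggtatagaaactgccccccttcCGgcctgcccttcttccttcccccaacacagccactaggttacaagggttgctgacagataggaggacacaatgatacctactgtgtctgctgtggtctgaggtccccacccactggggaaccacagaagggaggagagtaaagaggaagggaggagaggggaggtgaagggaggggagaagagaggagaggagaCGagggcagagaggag

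Kcnq1 (150293158 to 150612946), which encodes a potassium channel subunit, had 5hmC signals of 11.3, 17.8, 14.9, 18.4 and 11.6, above naive in each library though by 0.04 in that labelled Th17. Kcnq1ot1 (150399015 to 150482451), the paternally expressed antisense RNA that silences the cluster, lies wholly inside the Kcnq1 area and had 9.7, 8.5, 10.0, 9.1 and 10.5. The antisense area is 26.1% of Kcnq1, and signal there cannot be told apart between the genes. Its difference of -0.03 changed sign under the median-ratio scaling, as did those of Grb10, Impact, Mest, Nnat and Phlda2.

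Cdkn1c (150644243 to 150646954), which encodes a maternally expressed cyclin-dependent kinase inhibitor, had 17.6, 5.7, 8.1, 17.3 and 8.8. The naive library and the library labelled iTreg were high and close to each other, and the other 3 were low. Its mean difference was -0.93 ± 0.66, and -1.35 with Th1 and Th2 alone. Slc22a18, a transporter gene, had 14.7, 11.3, 13, 12 and 13.9, and Phlda2, which restrains placental growth, had 9.9, 5.7, 12.7, 8.4 and 9.3. Slc22a18 had the only 2-fold 5mC difference in Th17 cells, from 1.0 in naive to 0.4. The 4 other gene areas inside the span had a median 5hmC difference of -0.35 and the 8 within 200 kb of it -0.50.

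The Igf2-H19 cluster on chromosome 7 carries paternal germline methylation. H19 (149761436 to 149764050), a maternally expressed long non-coding RNA, had 5hmC signals of 5.8, 5.3, 9.2, 16.1 and 14.1. Igf2 (149836672 to 149846939), which encodes a paternally expressed fetal growth factor, had 17.7, 15.8, 22.9, 27.9 and 26.9. At both genes naive and Th1 were the low libraries and those labelled iTreg and Th17 the high ones. The mean differences were 0.80 ± 0.71 for H19 and 0.36 ± 0.37 for Igf2. With Th1 and Th2 alone they shrank to 0.26 and 0.10, so they rested mostly on the libraries labelled iTreg and Th17, both of which were high. H19 had 5mC signals of 1.6 in naive, Th1 and Th2 cells and 1.1 in iTreg and Th17 cells. Igf2 had 5mC of 0.5, 0.7, 0.5, 0.6 and 0.3.

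Igf2r (chromosome 17, 12875271 to 12962571), which encodes the maternally expressed receptor that clears Igf2, had 5hmC signals of 29.9, 17.3, 19.3, 14.5 and 15.2. Naive stood above the others, with a mean difference of -0.85 ± 0.18 (-0.70 with Th1 and Th2 alone). The antisense gene Airn covers 32.5% of the Igf2r area and had 23.3, 19.2, 19.5, 17.9 and 12.3. Thus ligand and receptor genes lay on opposite sides of naive in 5hmC in each differentiated library except Th1, where both were below. This holds for the whole Igf2 area. Igf2as, which covers 13.1% of it, and Mir483, which lies inside it, were below naive, with mean log2 differences of -0.84 and -0.79.

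**Figure D3:**
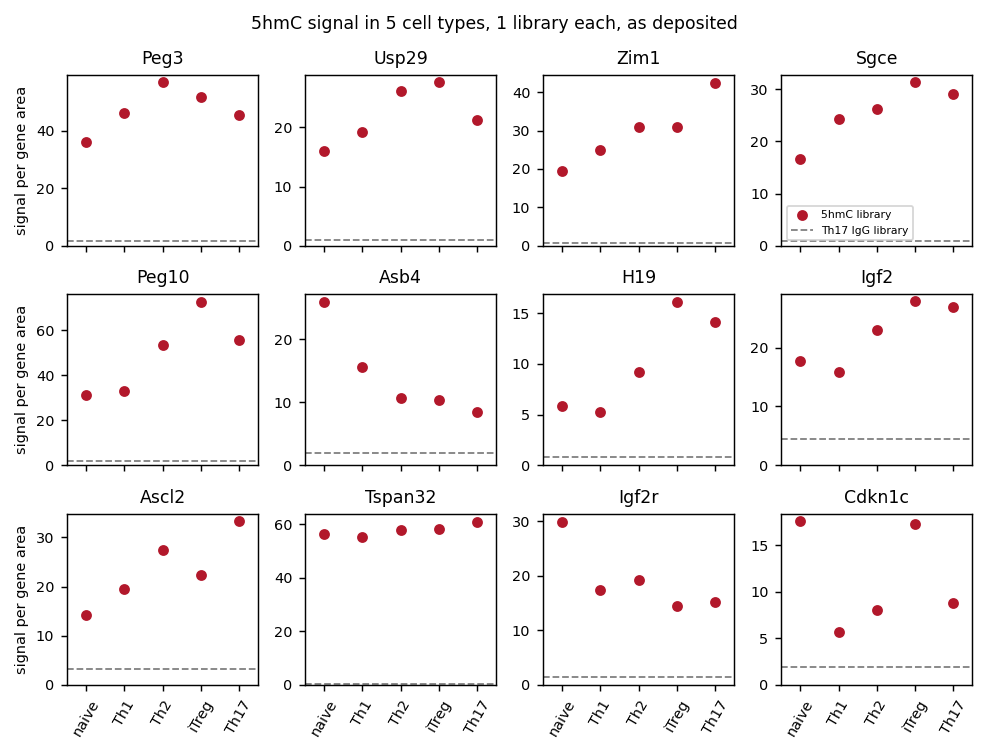
5hmC signal per gene area as deposited (y axis from 0, no unit given by the authors) in 5 cell types (x axis, as labelled, 1 library each) at 12 imprinted genes; the dashed line is the Th17 IgG library. Peg3, Usp29, Zim1, Sgce, Peg10 and Ascl2 have their lowest point in naive cells, Asb4, Igf2r and Cdkn1c their highest, and Tspan32 stays between 55.2 and 60.8.

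The Dlk1-Meg3 cluster on chromosome 12, also with paternal germline methylation, was divided among its 5 listed genes into protein-coding and non-coding ones. Its paternally expressed protein-coding genes Dlk1 (110691032 to 110701545), of the Notch ligand family, and Rtl1 (110828378 to 110833612), derived from a retrotransposon, were below naive in every library. Dlk1 had 18, 13.9, 12.3, 13.8 and 14.7, and Rtl1 had 13.5, 9.2, 10.9, 11.2 and 7.1. The area 6430411K18Rik covers 25.1% of Rtl1 and had a mean difference of -0.43. The microRNA areas inside Rtl1 also lay below naive, from -0.29 at Mir434 to -1.27 at Mir127. Signal there cannot be told apart between the genes, and the division did not extend to these non-coding areas. The maternally expressed non-coding genes had higher means over the 4 libraries: Mirg (110973190 to 110987667), a host of microRNAs, had 5.3, 9.1, 9.9, 6.3 and 7.7, and Rian, a host of small nucleolar RNAs, had 5.5, 5.1, 6.4, 7.3 and 8.1. Meg3, a long non-coding RNA, had 13.6, 15.5, 11.4, 14.9 and 17.5. The mean differences were -0.39 for Dlk1 and -0.51 for Rtl1 against 0.60 for Mirg, 0.26 for Rian and 0.11 for Meg3, and with Th1 and Th2 alone Mirg had 0.82, Rian 0.05 and Meg3 -0.03, so of the 3 non-coding genes Mirg stood clear of naive there. In 5mC all 5 genes had a mean below naive, from -0.16 for Rian to -0.58 for Meg3, whose 5mC signals were 1.7, 1.1, 1.3, 0.9 and 1.0.

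The Snrpn cluster on chromosome 7 had low 5hmC signal at most of its 6 genes. Snrpn (67127387 to 67285104), a paternally expressed splicing protein gene, had 5.9, 7.9, 7.3, 9.2 and 9.1, lowest in naive cells. Ube3a (66484119 to 66562096), a ubiquitin ligase expressed from the maternal allele in neurons, had 15.5, 11.1, 10.0, 12.1 and 8.6, highest in naive cells. The mean differences were 0.48 ± 0.16 and -0.57 ± 0.21. Of the 4 genes under the filter, Ndn had 2.9, 6.6, 7.8, 2.0 and 4.2, and Mkrn3 had 3.6, 5.0, 1.3, 3.0 and 4.7. Magel2 had 1.9 to 4.4 and Peg12 3.1 to 6.7 over the 5 libraries, with no common order, and Ndn and Mkrn3 passed 2-fold in opposite directions in Th2.

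At the remaining loci most genes lay below naive or close to it. Nap1l5 (chromosome 6, 58855226 to 58857119), a paternally expressed retrogene, had 5hmC signals of 15.7, 7.1, 7.6, 9.0 and 9.5, a mean difference of -0.91 ± 0.19. It lies wholly within Herc3, whose own area had 20.4, 14.9, 15.3, 15.2 and 14.7, so the host gene was lower too and the retrogene by more. Zrsr1, the retrogene within Commd1, had 14.6, 10.5, 12.9, 10.6 and 17.7, while its host had 14.0, 14.1, 14.9, 18.7 and 13.9. Zrsr1 had the only 2-fold 5mC difference among the genes that passed in iTreg cells, with 1.2 in naive and 0.5 in iTreg cells against 1.6 to 1.7 in the other 3. Inpp5f, a phosphatase gene, had 21.1, 14.1, 15.7, 15.4 and 12.3, and Blcap had 14.9, 11.0, 10.8, 9.5 and 11.6. Nnat, which encodes neuronatin and lies within Blcap, had 13.2, 12.1, 12.4, 10.7 and 14.7 and so stayed nearer to its naive value than its host did.

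Plagl1 (chromosome 10), a zinc finger gene that regulates other imprinted genes, was above naive in each library, with 9.6, 13.2, 12.9, 10.8 and 12.5. Gnas (chromosome 2), which encodes the stimulatory G protein subunit, had 22.7, 19.7, 25.2, 24.9 and 23.5 on the IgG signal of 5.2 given above. Mest, a hydrolase fold gene, had 15.3, 22.2, 15.1, 14.9 and 9.1, high in Th1 and low in the library labelled Th17. Grb10, which dampens insulin signalling, had 5.9 to 8.9, and its neighbour Ddc, which encodes DOPA decarboxylase, had 14.3 to 21.6 with the highest value in naive cells. Slc38a4, an amino acid transporter gene, had 9.3 to 16.6, and Impact, a translation regulator, had 8.0 to 15.3, both with their highest value in Th2.

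By cluster, the median 5hmC difference from naive was 0.58 for Igf2-H19, 0.54 for Peg3, 0.50 for Peg10, 0.11 for Dlk1-Meg3, -0.03 for Kcnq1, -0.07 for Snrpn, -0.19 for Grb10 and -0.28 for Nnat. With Th1 and Th2 alone the medians were 0.18 for Igf2-H19, 0.51 for Peg3, 0.34 for Peg10, -0.03 for Dlk1-Meg3 and -0.29 for Snrpn. By expressed allele, the median was 0.11 for the 15 maternally expressed genes, with 9 above and 6 below naive. It was 0.01 for the 20 paternally expressed genes, with 10 above and 10 below, and -0.32 for the 5 that depend on isoform or tissue, with 1 above. The ranges of both large groups overlapped almost wholly, from -1.22 to 0.81 and from -0.91 to 0.72, so the textbook allele did not separate the genes. Ube3a was counted as maternally expressed, and whether each gene is imprinted in T cells was not tested. The 7 genes of clusters with paternal germline methylation had a median of 0.26, with 5 above naive, and the 33 with maternal germline methylation -0.07, with 15 above. With Th1 and Th2 alone these medians were 0.05, with 4 above, and -0.11, with 14 above, and those of maternally and paternally expressed genes were 0.01 and 0.02. For 5mC the medians were -0.29 for maternally and -0.29 for paternally expressed genes, with 14 of 15 and 16 of 20 below naive, and with Th1 and Th2 alone -0.12 and -0.13, with 9 of 15 and 13 of 20 below.

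In 5mC most of the imprinted genes lay below naive. Over the mean of the 4 libraries 29 of 36 were below naive, with a median of -0.23, against 65.9% of all gene areas with a median of -0.11. With Th1 and Th2 alone 21 of 36 were below with a median of -0.10, against 55.1% and -0.03, so much of this difference rested on the libraries labelled iTreg and Th17. In all 4 libraries 17 of 36 were below (47.2%, against 23.1% of gene areas) and 0 were above (7.27%). Differences of 2-fold were rare. None of the 36 was 2-fold higher in Th1, Th2, iTreg or Th17 cells, where 2.68%, 1.84%, 1.6% and 1.81% of gene areas were. The numbers 2-fold lower were 0, 0, 1 (Zrsr1) and 1 (Slc22a18), where 2.67%, 3.81%, 5.54% and 4.72% of gene areas were. Under the median-ratio scaling 12 of 36 were below in all 4 libraries and 4 above, counts without a share of all gene areas. The median of all gene areas was then 0.01 against -0.11 for the imprinted genes.

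Lower 5mC together with higher 5hmC in all 4 libraries was found at 6 of 36 genes (16.7%, against 5.36% of gene areas): Mirg, Peg10, Peg3, Sgce, Usp29 and Zim1. All 3 genes of the Peg3 cluster and the neighbours Sgce and Peg10 were among them. Under the median-ratio scaling the 4 genes were Kcnq1, Mirg, Peg10 and Peg3 (7.39% of gene areas), so the grouping by cluster did not hold there. The opposite pattern was found at none, since no gene had more 5mC in all 4 libraries. The 5mC steps behind this count were small, from 0.1 at Usp29, Sgce and Mirg in Th1 cells to 1.0 at Peg10 in iTreg cells.

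The antibodies were then compared over the 5 cell types with limma, on log2 values from which the library's own median had been subtracted, with cell type as a block. The difference says whether a gene stood higher among 5hmC values than among 5mC values, and the spread is that between cell types, which are not replicates of a condition. Genes were called at an adjusted p (Benjamini-Hochberg, over all gene areas) under 0.05 if the log2 difference also reached 1. Of the 36 genes, 5 had higher 5hmC (13.9%, against 10.1% of gene areas), 6 had lower 5hmC (16.7%, against 7.62%) and 25 neither. The median difference was -0.10 for the imprinted genes and 0.08 for all gene areas.

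Tspan32 stood highest, with a log2 difference of 2.62 ± 0.17 (SE, 5 of 5 cell types higher, limma adjusted p = 8.19e-05). Peg3 followed with 1.35 ± 0.20 (5 of 5, limma adjusted p = 0.00126). Ascl2 had 1.23, Peg10 1.15 (4 of 5 cell types) and Igf2 1.1, with limma adjusted p of 0.00564, 0.0128 and 0.00513. The rest of the Peg3 and Peg10 clusters was not called, with 0.90 for Zim1, 0.49 for Usp29 and 0.43 for Sgce. Leaving out Th17 ended the calls of Ascl2 (0.98) and Igf2 (0.89), as did a pseudocount of 1 (0.91 and 0.83), and leaving out iTreg ended that of Peg10 (0.92).

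Genes with lower 5hmC than 5mC in relative terms were Rtl1, Cdkn1c, Nap1l5, H19, Mirg and Nnat. Rtl1 had -1.51 ± 0.17 (5 of 5 cell types lower, limma adjusted p = 0.000447) and Cdkn1c -1.43 ± 0.26 (5 of 5, limma adjusted p = 0.00335). Both had 5mC signals among the highest of all gene areas, with means of 1.86 and 1.80 that lay above 96.1% and 95.6% of them. In Th17 cells, though, the 5mC signal of both lay below IgG and input on the deposited scale. Rtl1 had 1.7 against 2.5 for IgG and 2.3 for input, and Cdkn1c had 1.7 against 1.9 for each. Below input lay 39 of the 40 imprinted genes. Nap1l5 had -1.30, H19 -1.29, Mirg -1.16 and Nnat -1.07, with limma adjusted p of 0.00264, 0.0108, 0.00493 and 0.00164 and 5 of 5 cell types lower in each. Leaving out the naive libraries ended the calls of Mirg (-0.93) and Nnat (-0.98). A pseudocount of 1 took Nap1l5 (-0.999), H19 (-0.98), Mirg (-0.99) and Nnat (-0.73) under the log2 limit of 1, and no filter took Nnat (-0.94), while Rtl1 and Cdkn1c stayed past it under both. Each cluster with paternal germline methylation had genes on the lower side, Rtl1 and Mirg in Dlk1-Meg3 and H19 in Igf2-H19, and Igf2 was on the higher side. Without the centring every gene had more 5hmC than 5mC signal, so the lower calls are relative to the typical gene area.

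**Figure D4:**
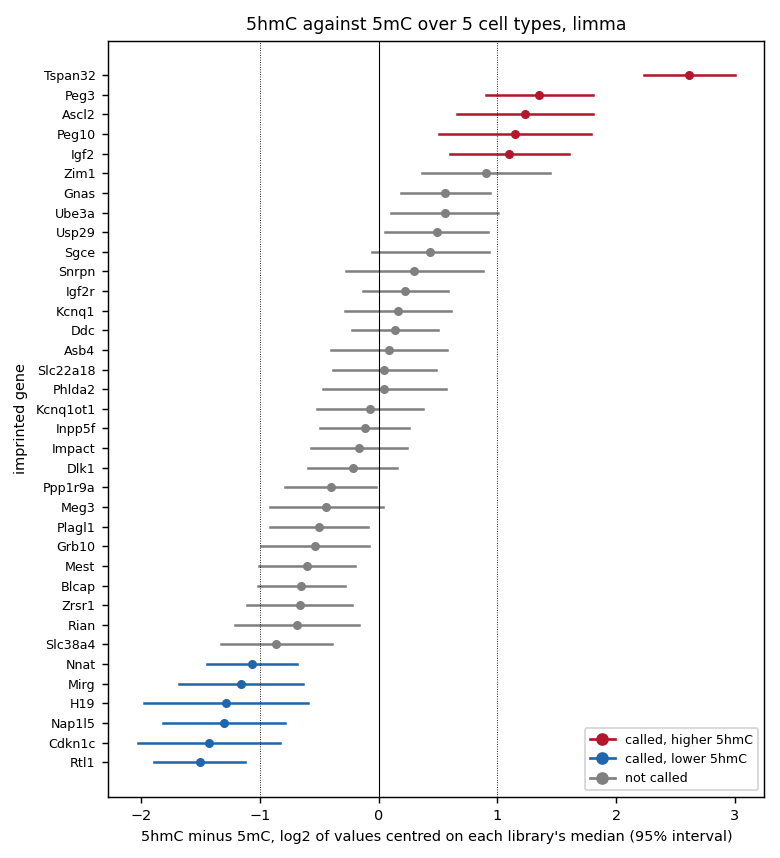
Log2 difference of 5hmC and 5mC (x axis, centred on library medians) for the 36 imprinted genes that passed the filter, with the limma estimate as a point and its 95% interval as a bar; dotted lines mark a difference of 1 either way. Tspan32 stands apart at 2.62, 5 genes in red are called higher, 6 in blue lower and 25 in grey are not called.

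Promoter windows from RefSeq were used for 33 of the 40 genes, none of them on chromosome 18, where Impact lies. Where a gene had several windows, the one with most CG sites was taken, for all genes alike. The 33 windows held 0 to 48 CG sites with a median of 15, against 8 in 27025 genes with a window of 300 bases. These counts therefore depend on how many starts are listed for a gene. The hexamer TGCCGC, the core recognised by the imprint-keeping zinc finger protein Zfp57 in its methylated form, was searched on both strands. It was found in 8 of the 33 windows (24.2%), against 12.2% of all genes. The genes were Grb10, Meg3, Mest, Nap1l5, Nnat, Plagl1, Snrpn and Zim1, whose 5hmC differences ran from -0.91 at Nap1l5 to 0.70 at Zim1. A match describes these letters only, and the windows of the starts listed need not be the germline regions. The hexamer itself holds a CG site, and its shares were not matched for the CG content of the windows, with medians of 15 and 8.

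The genes that make, keep or remove imprints were looked at as a list of 23, among them the methyltransferases, Tet enzymes, Zfp57 and Trim28. Of these 18 lay below naive in 5hmC and 5 above, with a median of -0.50, and 4 were at least 2-fold lower in the mean of the 4 libraries. Of all gene areas that passed the filter 64.4% lay below naive and 15.97% were 2-fold lower in that mean. The lowest were Arid4a, with 37.6 for naive and at most 18.3 elsewhere, and Ctcf, the insulator protein that binds upstream of H19, with 56.5 and at most 28.6. The highest were Dnmt3b, a methyltransferase (162.5 and 215.8 to 339.7), and Ctcfl, the germ cell relative of Ctcf (64.4 and 73.2 to 92.3). The Dnmt3b area had an IgG signal of 326.1, above each of its 5hmC values but that of the library labelled iTreg. Of 37 further imprinted genes or neighbours from the same clusters, 22 (59.5%) lay below naive and 15 above, with a median of -0.24. Their highest were Dcn (6.1 for naive, 9.6 to 15.7 elsewhere) and Nespas (20.1 and 25.2 to 39.9, with an IgG signal of 8.4), and their lowest Nap1l4 (20.6 and 7.6 to 12.9) and H13 (26.3 and 9.5 to 16.2). The median size of the difference from naive, whatever its direction, was 0.38 for the 40 imprinted genes and 0.42 for these 37. It was 0.53 for the 23 regulators and 0.50 for all gene areas. Among those that passed the filter it was 0.42 for the 36 imprinted genes and 0.50 for all gene areas. On the deposited scale the 40 imprinted genes were thus about as far from naive as the 37. They were nearer to it than the typical gene area, whose values include a general shift below naive. These sizes were not taken under the median-ratio scaling.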

How the data were processed

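The deposited signal is a mean per gene area, never negative, with 1 decimal. CASAVA 1.7.0 and mouse build mm9 are named in the submitters' processing notes. How reads were aligned, counted, deduplicated and scaled is not stated there, so depth is unknown and no counting interval could be given. Coordinates are as the file gives them on mm9, whether from 0 or 1 is not stated. Promoter windows are on GRCm38.p6.

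Of 37752 rows, 208 repeats of a symbol were left out (the row of highest mean was kept). Log2 values used a pseudocount of 0.2, the 5th percentile of non-zero values, which understates changes of low areas. The filter was the 25th percentile of area means. The antibody comparison used limma 3.58.1 (R 4.3.3) and other steps used Python 3.11.15 and pandas 2.3.3. On simulated libraries of 28159 areas, limma recovered 60 of 100 planted differences of 1.5 and 96 of 100 of 3, with 3 false calls among 27959. Whether these counts hold for the deposited signal, with its 1 decimal and the pseudocount of 0.2, was not tested. Alternatives were pseudocount 1, median-ratio scaling, no filter, areas of at least 3000 bp, no centring, no cell type block and leaving out cell types. Per-library values were given for genes with extreme differences, high IgG signal or overlapping areas, and for the 2 highest and 2 lowest of each further list. Genes, clusters, alleles and lists come from textbook knowledge, with earlier results of these data known.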

Additional observations from a re-analysis of the deposited data

How the results depend on the processing

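With 1 library per cell type and antibody, differences from naive have no replicate check, and 5mC ratios are limited by rounding to 0.1. No paired analysis by replicate number was possible because each group holds 1 library. The counts below are of imprinted genes, without the shares of all gene areas beside them.

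With pseudocount 1, 5hmC 2-fold lower genes in the library labelled iTreg numbered 1, 5mC 2-fold lower genes 0 in iTreg and 0 in Th17, and limma called 3 genes higher and 2 lower. With median-ratio scaling the 5hmC median was 0.1971, 2-fold lower genes numbered 1 in Th1, 1 in Th2 and 1 in iTreg, 2-fold higher genes 2 in Th2 and 5 in Th17, genes below naive in all 4 libraries 7, 5mC 2-fold lower genes 0 in iTreg and 0 in Th17, and 5mC genes above naive in all 4 libraries 4. Without the filter, which adds 4 genes, 5hmC 2-fold higher genes numbered 1 in Th1 and 1 in Th2, and 5mC 2-fold lower genes 1 in Th2 and 3 in iTreg. With gene areas of at least 3000 bp, which leaves out short genes, 5hmC 2-fold lower genes numbered 0 in Th1 and 1 in Th2, 2-fold higher genes 1 in iTreg and 1 in Th17, 5mC 2-fold lower genes 0 in iTreg, and limma called 2 genes lower.

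Without centring, limma called 36 genes higher and 0 lower, and Rtl1 (2.35), Mirg (2.70), Nnat (2.79), Nap1l5 (2.55), H19 (2.57) and Cdkn1c (2.43) turned, since 5hmC values are larger throughout. Leaving out each cell type gave 3 to 6 higher and 4 to 7 lower calls. With each library divided by its median, 19 genes had 5hmC above IgG and 25 had 5mC above input. Other causes were not tested.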
